A study of Mus musculus with 8 samples.

Results

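The nectins and junctional adhesion molecules (JAMs) were examined in mouse pancreas buds that had lost the Hippo kinase genes *Lats1* and *Lats2*. The set holds 9 of the 24341 genes in the expression table, namely the nectin genes *Pvrl1*, *Pvrl2*, *Pvrl3* and *Pvrl4*, the related *Pvr*, the JAM genes *F11r*, *Jam2* and *Jam3*, and *Cxadr*. The 9 were chosen by gene family, with their FPKM in WT and *Lats1/2* null buds already known, so their values in that contrast are a description. Of the 9, 8 passed the filter, set at a mean over all buds of 0.5 FPKM, which are fragments scaled to transcript length and to library size, and *Pvrl4* did not. Total RNA came from single pancreas buds of mouse embryos at E11.0, with 5 WT buds and 3 buds of the genotype Pdx1Creearly;Lats1f/f;Lats2f/f, here called *Lats1/2* null. The methods name CD1 mice for WT analyses and otherwise the floxed and Cre lines. Cre driven by the *Pdx1* promoter acts in pancreatic progenitors, so other cells of a null bud keep both genes, and mesenchyme was pulled off by hand in all 8. The methods name WT or heterozygous littermates as controls, and the labels of the control buds read WT. No source ties the buds to litters, so p-values measure only the spread between these buds.

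Nectins are single-pass immunoglobulin proteins of the adherens junction that bind each other across the gap between neighbouring cells and are anchored to actin by afadin. JAMs and CXADR are immunoglobulin proteins placed near the tight junction, where they recruit PDZ scaffolds and the PAR polarity complex. In a branching epithelium such as the pancreas, these contacts lie at the border between the apical and the lateral membrane.

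*Pvrl2* and *F11r* had the highest log2 fold changes of the 8 tested genes, and *Pvrl3* lay at the same level in both genotypes, so the 250 bases before the annotated start of these 3 genes are shown. They are RefSeq sequences on GRCm38.p6, printed 5′ to 3′ on the strand of the gene, with capitals marking the GC box GGGCGG in either direction. The windows are chr7:19749574-19749823 on the minus strand for *Pvrl2*, chr16:46496968-46497217 on the minus strand for *Pvrl3* and chr1:171437311-171437560 on the plus strand for *F11r*.
Pvrl2: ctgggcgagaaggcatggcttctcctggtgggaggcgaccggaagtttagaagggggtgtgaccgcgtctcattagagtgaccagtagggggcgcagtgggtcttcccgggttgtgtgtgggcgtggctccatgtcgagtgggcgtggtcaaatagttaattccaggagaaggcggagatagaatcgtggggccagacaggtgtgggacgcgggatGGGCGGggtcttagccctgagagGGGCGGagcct
Pvrl3: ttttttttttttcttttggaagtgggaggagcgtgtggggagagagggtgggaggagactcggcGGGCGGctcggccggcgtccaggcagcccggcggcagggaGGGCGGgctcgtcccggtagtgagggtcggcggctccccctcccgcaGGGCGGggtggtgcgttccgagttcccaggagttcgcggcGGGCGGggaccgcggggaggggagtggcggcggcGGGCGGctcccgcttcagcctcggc
F11r: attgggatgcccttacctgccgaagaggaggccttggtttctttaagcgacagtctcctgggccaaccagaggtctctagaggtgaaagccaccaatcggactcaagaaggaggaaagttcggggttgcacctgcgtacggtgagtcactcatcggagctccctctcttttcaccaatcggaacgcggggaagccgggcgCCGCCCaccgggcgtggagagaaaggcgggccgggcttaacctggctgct
The *Pvrl3* window held 5 GC boxes and 30 CpG, the *Pvrl2* window 2 and 16, and the *F11r* window 1 and 17. A GC box is present in 32.7% of 32851 promoter windows of this length. The letters GGAATG, the core bound by TEAD factors, were searched on both strands and were in none of the 3 windows, against 12.6% of all windows, which says only that these letters are not within these bases. A window was also at hand for *Pvrl4*, with 0 GC boxes, 3 CpG and no GGAATG. None was used for *Pvrl1*, *Pvr*, *Jam2*, *Jam3* and *Cxadr*.

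The libraries were alike in estimated depth. A single fragment on 1000 bases of transcript was estimated at 0.099 to 0.107 FPKM in all libraries but WT replicate 5. There it was estimated at 0.134 FPKM, the shallowest. The estimate is rough, since the best step matched 19 of 74 low values in WT replicate 4 and 29 of 76 in null replicate 3. Fragment counts below rest on it. Whole-gene FPKM of the deleted genes checks the labels only in part, since the deleted exons were not analysed by themselves. *Lats1* was at 14.1 to 16.6 FPKM in WT buds and at 12.3, 13.8 and 10.1 FPKM in the null buds, below the WT range in all 3 (log2 fold change -0.35, limma adjusted p = 0.269). *Lats2* ranges overlapped (log2 fold change -0.16, limma adjusted p = 0.589). All 14 epithelial markers were detected and higher in the null buds, with a summed level of 228 to 294 FPKM in WT buds against 512, 442 and 1075 FPKM. Null replicate 3 stood apart, with the highest epithelial sum and the lowest mesenchymal sum. The mesenchymal sum was 579 to 852 FPKM in WT buds and 464, 624 and 272 FPKM in null replicates 1 to 3, below the WT range in replicates 1 and 3. In bulk RNA, more cells of a type and more RNA per cell cannot be told apart.

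In WT buds the family was led by *Jam3*, at 37.0 ± 2.22 FPKM (SD, n = 5). *Pvrl2* followed at 29.5 ± 1.36 FPKM, *Cxadr* at 27.1 ± 3.59 FPKM and *Pvrl3* at 20.7 ± 0.818 FPKM. These 4 genes lay between the 77.5th and the 87.3rd percentile of genes above 0 in WT. *Pvrl1* at 9.35 ± 1.82 FPKM and *F11r* at 9.18 ± 0.959 FPKM were near the 60.9th and 60.5th percentile. *Pvr* stood at 3.41 ± 0.722 FPKM, *Jam2* at 1.32 ± 0.332 FPKM and *Pvrl4* at 0.106 ± 0.127 FPKM. FPKM are per transcript length, so the order can be read across genes. Neighbours in this order did not overlap between WT buds, except *Pvrl2* with *Cxadr* and *Pvrl1* with *F11r*, which were in the stated order in only 3 of 5 buds each.

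**Figure D1:**
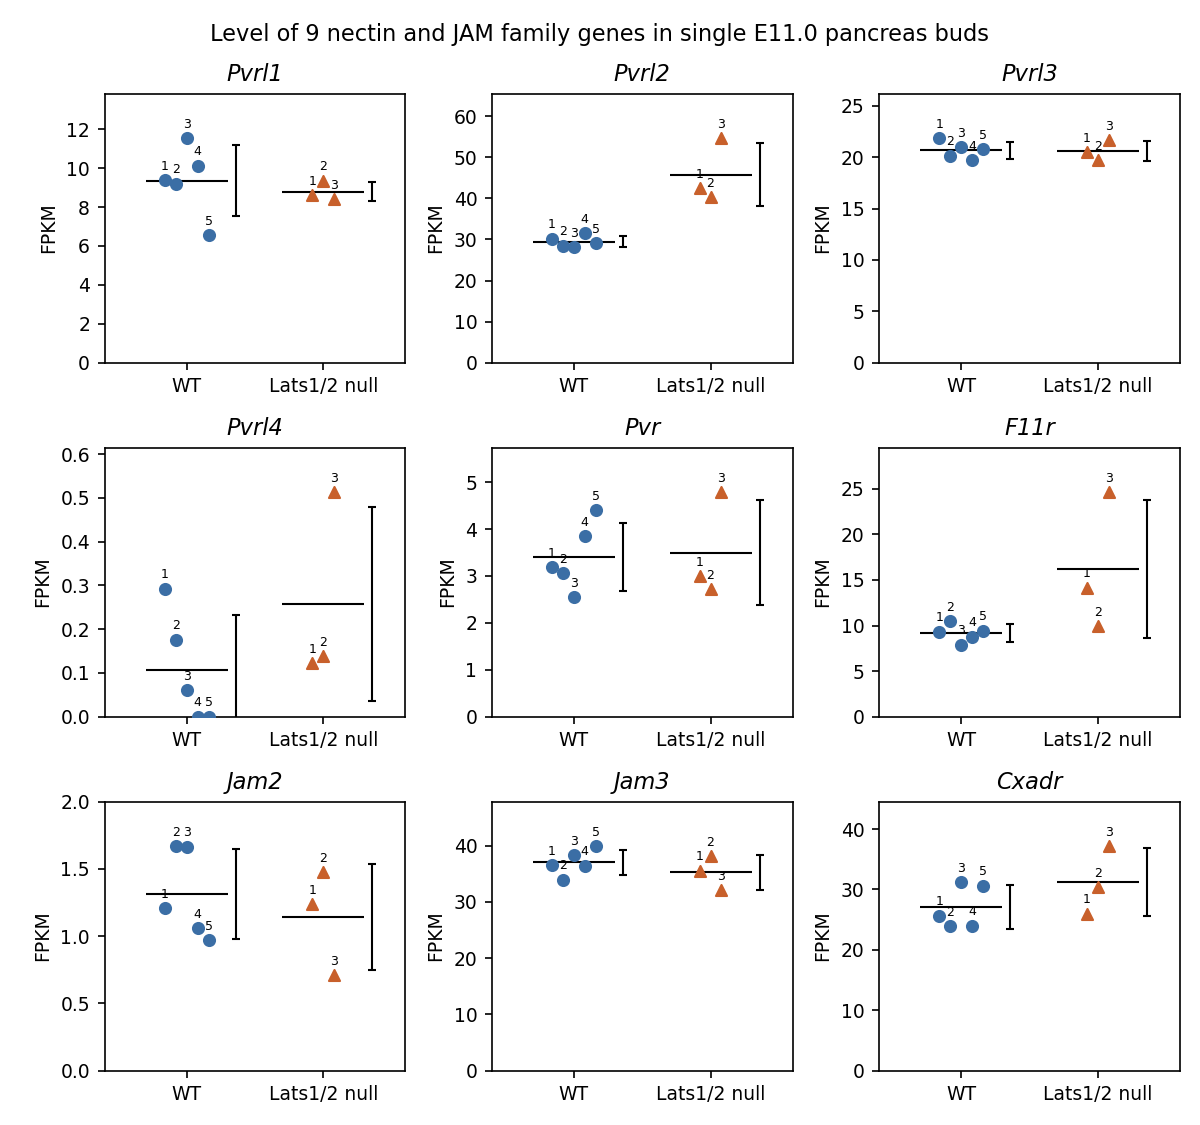
FPKM of each gene in 5 WT buds (circles) and 3 *Lats1/2* null buds (triangles), numbered by replicate, with a line at the mean and a bar of 1 SD beside it, cut at 0 for *Pvrl4*. All 3 null buds lie above the WT buds for *Pvrl2* only. Null replicate 3 is the highest of the 8 for *Pvrl2*, *Pvrl4*, *Pvr*, *F11r* and *Cxadr*, and the lowest for *Jam2* and *Jam3*.

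The comparison of the 2 genotypes asks whether loss of *Lats1/2* in the early pancreas shifts the level of these adhesion genes. *Pvrl2* was higher in every null bud, *F11r* was higher in 2 of 3, and the 6 other tested genes had overlapping ranges and log2 fold changes between -0.12 and 0.19. Of the 8 tested genes, 4 were higher and 4 lower, with a median log2 fold change of 0.0053 against -0.012 over all 13777 genes tested. At a Benjamini-Hochberg adjusted p under 0.05 from limma, 0 of 8 passed, as did 2 of all tested genes (0.0145%). An unadjusted p under 0.05 was reached by 2 of 8, *Pvrl2* and *F11r*, and by 11.3% of all tested genes. Every null bud lay above every WT bud for 1 of 8, against 4.46% of all tested genes, and below for 0 of 8, against 3.06%. Fold changes are on the scale of log2(FPKM + 1), which understates the change of genes at low levels.

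*Pvrl2* encodes nectin-2, a broadly expressed nectin of epithelia, and lies on the minus strand of chromosome 7 of GRCm38 from 19716644 to 19749573. Its level in WT replicates 1 to 5 was 30.2, 28.5, 28.2, 31.5 and 29.1 FPKM. In null replicates 1 to 3 it was 42.4, 40.3 and 54.6 FPKM. The WT buds were tightly grouped, with a coefficient of variation of 4.61%, and the lowest null bud was well clear of the highest WT bud. The means were 29.5 ± 1.36 FPKM (SD, n = 5) and 45.8 ± 7.71 FPKM (SD, n = 3), or 1.55-fold, and 1.40-fold with null replicate 3 set aside. The log2 fold change was 0.61 (standard error 0.097, 95% interval 0.39 to 0.83), with a limma adjusted p of 0.0856. That adjusted p was 0.0133 with array weights and 0.0462 without null replicate 2, and over the 15 unblocked alternatives it ran up to 0.234. Since *Pvrl2* is among the genes for which this contrast was known, no further test is given.

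*Pvrl3* encodes nectin-3, the preferred partner of nectin-1 and nectin-2 on the opposite cell, on the minus strand of chromosome 16 from 46394858 to 46496967. WT replicates 1 to 5 were at 21.8, 20.1, 21.0, 19.7 and 20.8 FPKM. The null buds were at 20.5, 19.7 and 21.6 FPKM. All 8 buds lay within about the same narrow band, and the 95% interval of the log2 fold change ran from -0.15 to 0.14 (limma adjusted p = 0.985). *Pvrl1* encodes nectin-1, on the plus strand of chromosome 9 from 43744576 to 43807461. It was at 9.37, 9.21, 11.5, 10.1 and 6.54 FPKM in WT replicates 1 to 5 and at 8.62, 9.36 and 8.41 FPKM in the null buds. The null buds fell inside the WT range, which WT replicate 5 widened at its lower end (log2 fold change -0.06, 95% interval -0.40 to 0.28, limma adjusted p = 0.913).

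*Pvrl4* encodes nectin-4, which has a narrower tissue range than the other nectins, and lies on chromosome 1 from 171370173 to 171388287. It was at 0.292, 0.176 and 0.0608 FPKM in WT replicates 1 to 3 and was listed at 0 in WT replicates 4 and 5. The null buds were at 0.122, 0.139 and 0.513 FPKM. With its longest coding GENCODE transcript of 3636 bases, this is about 10 fragments in WT replicate 1 and 18 in null replicate 3, the highest of the 8. The gene was not tested. Its neighbour *F11r*, 49.3 kb away on the same strand, was far more abundant in every bud.

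The make-up of the nectins differed between the genotypes. The ratio of *Pvrl2* to *Pvrl3*, both in FPKM, was 1.34 to 1.60 in WT buds and 2.07, 2.05 and 2.52 in null replicates 1 to 3, without overlap. *Pvrl2* made up 46.4% to 51.6% of the summed FPKM of the 4 nectins in WT and 59.2%, 58.0% and 64.1% in the null buds. *Pvrl3*, at an even level, made up 32.1% to 36.9% in WT and 28.6%, 28.3% and 25.4% in the null buds. The summed nectin level was 56.5 to 61.7 FPKM in WT and 71.7, 69.5 and 85.2 FPKM in the null buds. These ratios rest on the same contrast as the fold changes and carry no test.

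**Figure D2:**
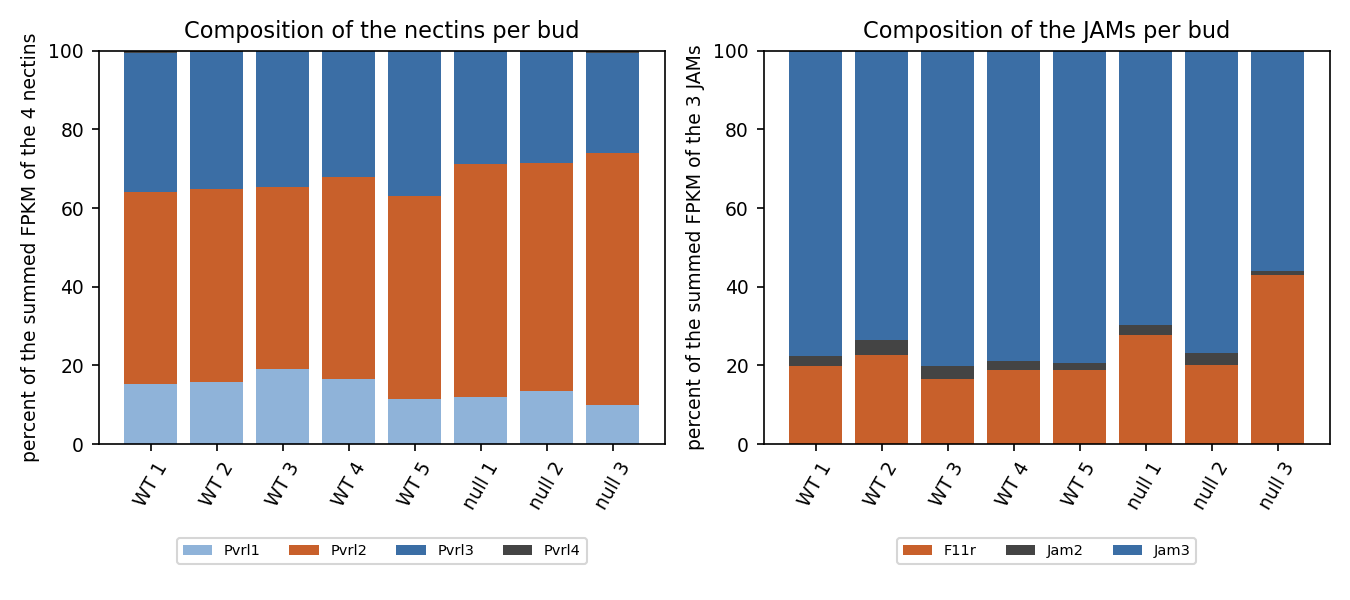
Share of each gene in the summed FPKM of the 4 nectins (left) and of the 3 JAMs (right), in percent, with 1 stacked bar for each of the 5 WT and 3 *Lats1/2* null buds. *Pvrl2* takes 58.0% to 64.1% of the nectin bar in the null buds against at most 51.6% in WT, and *F11r* takes 42.9% of the JAM bar in null replicate 3 but 20.1%, within the WT range, in null replicate 2.

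*Pvr* encodes the poliovirus receptor homologue, a nectin-like protein that binds nectin-3 and receptors on lymphocytes. It lies 154 kb from *Pvrl2*, on the minus strand of chromosome 7 from 19903578 to 19921143. WT replicates 1 to 5 were at 3.19, 3.06, 2.55, 3.85 and 4.40 FPKM, and the null buds at 2.99, 2.72 and 4.78 FPKM. Null replicate 3 was the highest of the 8 and the other null buds were inside the WT range. The log2 fold change was 0.02 (95% interval -0.41 to 0.44, limma adjusted p = 0.984) and took the other sign, at -0.18, without null replicate 3. The ratio of *Pvrl2* to *Pvr*, both in FPKM, was 6.61 to 11.04 in WT and 14.2, 14.8 and 11.4 in null replicates 1 to 3, higher in all 3.

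*F11r* encodes JAM-A, the JAM of epithelial tight junctions, on the plus strand of chromosome 1 from 171437561 to 171464593. It was at 9.31, 10.5, 7.88, 8.77 and 9.45 FPKM in WT replicates 1 to 5. In null replicates 1 to 3 it was at 14.1, 9.95 and 24.6 FPKM. Null replicates 1 and 3 were above the WT range, and null replicate 2 was within it. The means were 9.18 ± 0.959 FPKM (SD, n = 5) and 16.2 ± 7.55 FPKM (SD, n = 3), or 1.77-fold, and 1.31-fold with null replicate 3 set aside. The log2 fold change was 0.67 (standard error 0.23, 95% interval 0.15 to 1.20, limma adjusted p = 0.330). It was 0.34 without null replicate 3 and 0.96 without null replicate 2.

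*Jam3*, the gene of JAM-C, had the highest level of the set in WT and encodes a protein of endothelial, epithelial and other contacts, on the minus strand of chromosome 9 from 27097384 to 27155421. It was at 36.6, 34.0, 38.3, 36.5 and 39.9 FPKM in WT replicates 1 to 5 and at 35.6, 38.1 and 32.1 FPKM in the null buds. Null replicate 3 was just under the WT range and the other null buds were inside it (log2 fold change -0.07, 95% interval -0.24 to 0.10, limma adjusted p = 0.780). *Pvrl2* was above *Jam3* in all 3 null buds, whereas *Jam3* was above *Pvrl2* in all 5 WT buds. *Jam2* encodes JAM-B, a partner of JAM-C known from endothelium, on the plus strand of chromosome 16 from 84774123 to 84826375. It was at 1.21, 1.67, 1.67, 1.06 and 0.972 FPKM in WT replicates 1 to 5 and at 1.24, 1.47 and 0.712 FPKM in the null buds. Only null replicate 3 was below the WT range (log2 fold change -0.12, 95% interval -0.52 to 0.29, limma adjusted p = 0.857). At the length of its longest coding GENCODE transcript, *Jam2* rests on about 30 to 69 fragments a bud.

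The make-up of the JAMs lay outside the WT range in 2 of 3 null buds. *F11r* made up 16.5% to 22.8% of the summed FPKM of the 3 JAMs in WT and 27.7%, 20.1% and 42.9% in null replicates 1 to 3. *Jam3* remained the most abundant JAM in every bud, at 73.6% to 80.0% in WT and 69.8%, 76.9% and 55.9% in the null buds. The summed JAM level was 46.1 to 50.3 FPKM in WT and 51.0, 49.6 and 57.4 FPKM in the null buds.

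*Cxadr* encodes the coxsackievirus and adenovirus receptor, an adhesion protein of epithelial junctions, on the plus strand of chromosome 16 from 78301671 to 78359785. WT replicates 1 to 5 were at 25.6, 23.9, 31.2, 24.0 and 30.7 FPKM, and the null buds at 26.0, 30.4 and 37.1 FPKM. Null replicate 3 was above the WT range and the other null buds were inside it. The log2 fold change was 0.19 (95% interval -0.11 to 0.49, limma adjusted p = 0.643), and 0.06 without null replicate 3. *Btg3* overlaps *Cxadr* on the other strand and had a mean of 8.45 FPKM in WT (SD 1.58, n = 5) and of 8.99 FPKM in null buds (SD 0.860, n = 3). Further annotated genes overlap *Pvrl1*, *Pvrl2*, *Pvr* and *Jam3* on the other strand, and a short ribosomal RNA gene overlaps *Jam2* on its own strand. The libraries are stranded and were aligned with strand, and *Btg3* was named for this overlap, after its values were seen.

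Markers of the cells in the bud were set beside these levels. The 14 epithelial markers were all higher in null buds, 13 of them without overlap, against 4.46% of all tested genes (median log2 fold change 1.07), and 9 of 10 pancreatic progenitor markers were higher (median 0.67). The median of the 11 endothelial markers was -0.39 and that of the 13 tested mesenchymal markers -0.49. No marker of any list passed limma's adjusted threshold. Within the null buds, *F11r*, *Pvrl2* and the epithelial sum followed the same order, with replicate 3 highest and replicate 2 lowest for each of the 3 quantities. Within the WT buds *Pvrl2* did not follow the sum. It was highest in WT replicate 4, at 31.5 FPKM with a sum of 268 FPKM. WT replicate 2 had the highest WT sum, 294 FPKM, with *Pvrl2* at 28.5 FPKM. *F11r*, like the sum, was highest in WT replicate 2 and lowest in WT replicate 3. The part of these markers in the levels of *Pvrl2* and *F11r* was not tested.

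Set against single epithelial genes, *F11r* was lower in the null buds. The ratio of *F11r* to *Cdh1*, the gene of E-cadherin, both in FPKM, was 0.337 to 0.415 in WT and 0.306, 0.281 and 0.259 in null replicates 1 to 3, lower in all 3. The ratio of *F11r* to *Epcam* was 0.223 to 0.301 in WT and 0.221, 0.178 and 0.180 in the null buds. The ratio of *Pvrl2* to *Cdh1* overlapped between genotypes, at 0.914 to 1.49 in WT and 0.918, 1.14 and 0.576, with null replicate 3 alone below the WT range. *Pvrl2* to *Epcam* likewise ran from 0.608 to 0.926 in WT and was 0.662, 0.721 and 0.400 in the null buds. In no null bud was any of these 4 ratios above its WT range. They rest on the same contrast as the fold changes and carry no test. The ratio of means was 2.33 for *Cdh1* and 2.24 for *Epcam*, above 1.77 for *F11r* and 1.55 for *Pvrl2*, so lower ratios follow from these.

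**Figure D3:**
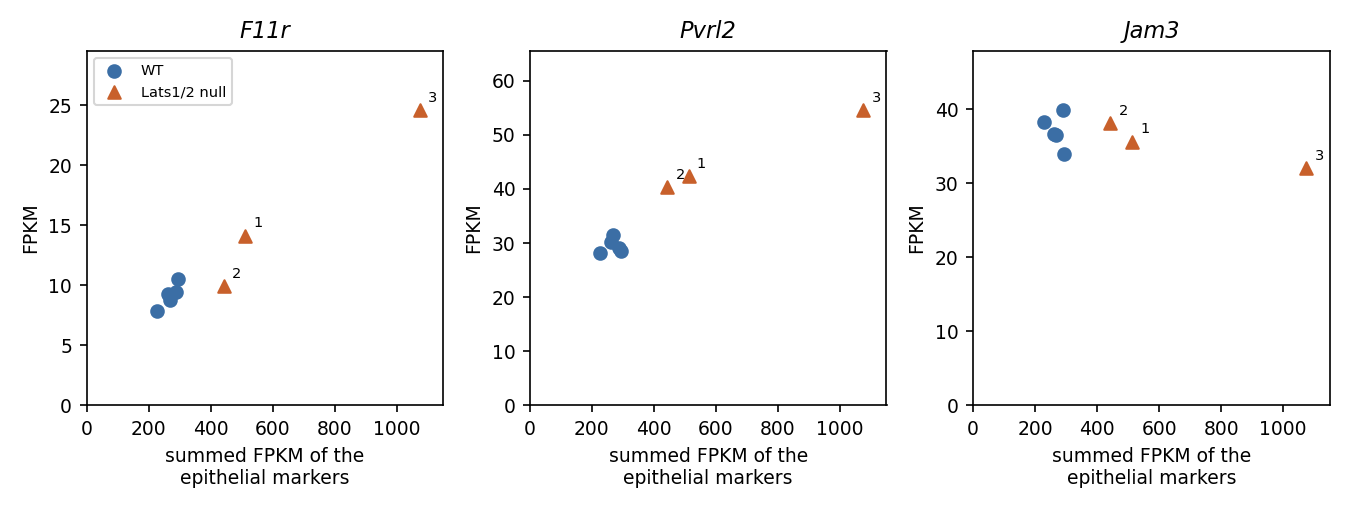
FPKM of *F11r*, *Pvrl2* and *Jam3* (vertical axes) against the summed FPKM of 14 epithelial markers (horizontal axis) in 5 WT buds (circles) and 3 *Lats1/2* null buds (triangles, numbered). Null replicate 3, at 1075 FPKM of marker sum, is highest for *F11r* and *Pvrl2* and lowest for *Jam3*. *Pvrl2* separates the genotypes, and *F11r* of null replicate 2 lies at the height of the WT buds.

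Markers of other cell types were set beside the members known from them. The endothelial marker sum was 169 to 275 FPKM in WT and 186, 177 and 120 FPKM in the null buds, and *Cdh5*, the endothelial cadherin, was at 28.8 to 47.7 FPKM and at 32.4, 32.6 and 19.9 FPKM. The ratio of *Jam2* to *Cdh5* was 0.0229 to 0.0578 in WT, and the null buds, at 0.0383, 0.0453 and 0.0357, lay inside that range. That range is wide, because *Jam2* did not follow *Cdh5* in WT buds. WT replicate 3 had 28.8 FPKM of *Cdh5* and 1.67 FPKM of *Jam2*, against 42.5 and 0.972 FPKM in WT replicate 5. Lying inside it therefore does not tie *Jam2* to the endothelial level. The mesenchymal receptor gene *Pdgfra* was at 35.5 to 87.8 FPKM in WT and at 35.0, 31.8 and 19.9 FPKM in null buds. The liver marker sum was 92.3 to 161 FPKM in WT and 160, 121 and 356 FPKM in the null buds, so null replicate 3 was high there too. Median log2 fold changes of the other lists were -0.48 for mesothelium, 0.21 for neural crest and neurons, 0.42 for red blood cells, -0.03 for leukocytes, 0.49 for liver, and -0.17 for stomach and intestine. Their part in the levels of the adhesion genes was not tested.

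The cytoplasmic partners of nectins and JAMs were taken from a list of 25 scaffold and polarity genes, all of which were tested. Of these, 18 were higher and 7 lower, against 6461 higher and 7316 lower of all tested genes, with a median log2 fold change of 0.14. At limma's adjusted threshold 0 passed, and at an unadjusted p under 0.05, which 11.3% of all tested genes reached, 2 were higher and 2 lower. *Inadl*, which encodes the Crumbs-complex scaffold PATJ, was at 8.31 to 10.4 FPKM in WT and 16.3, 11.4 and 26.4 FPKM in null replicates 1 to 3 (log2 fold change 0.73, limma adjusted p = 0.279). *Tjp3*, the gene of ZO-3, was at 0.452 to 0.968 FPKM in WT and 1.14, 1.00 and 3.20 FPKM in the null buds (log2 fold change 0.61, limma adjusted p = 0.399). *Cask*, a scaffold kinase, was at 11.8 to 13.7 FPKM and 10.5, 11.8 and 9.34 FPKM (log2 fold change -0.23, limma adjusted p = 0.399). Every null bud was above the WT range for 2 of the 25, *Inadl* and *Tjp3*, against 4.46% of all tested genes. Every null bud was below it for 0, against 3.06%. Null replicate 2 was nearest to the WT range for both genes, and for *Tjp3* it was at 1.00 FPKM against a WT high of 0.968 FPKM. Without null replicate 3 the log2 fold change was 0.43 for *Inadl*, 0.27 for *Tjp3* and -0.15 for *Cask*. The main link of nectins to actin, afadin, is encoded by *Mllt4*, which was abundant, with a mean of 57.2 FPKM in WT (SD 5.78, n = 5) and of 67.5 FPKM in null buds (SD 14.0, n = 3). *Tjp1*, the gene of ZO-1, and the JAM-binding polarity gene *Pard3* had log2 fold changes of 0.15 and 0.08. *Mllt4*, *Tjp1* and *Pard3* had overlapping ranges. *Mllt4*, *Tjp1* and *Pard3* were named for their role, and *Mpdz*, a further scaffold, for its interval, after their values were seen.

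**Figure D4:**
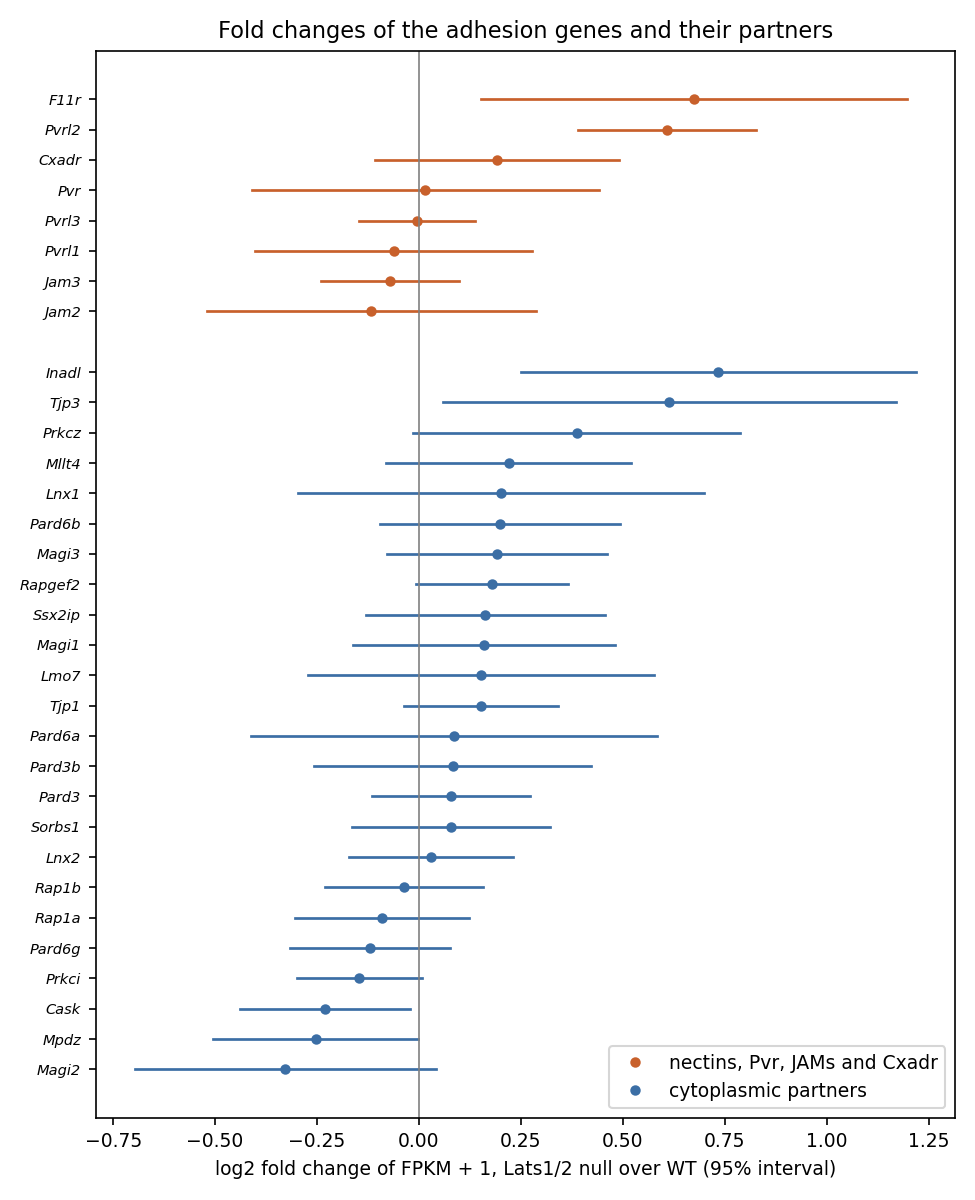
Log2 fold change of FPKM + 1, *Lats1/2* null over WT, with its 95% limma interval, for the 8 tested adhesion genes (upper block) and the cytoplasmic partners reported here (lower block). The intervals of *F11r* (0.15 to 1.20) and *Pvrl2* (0.39 to 0.83) lie above 0, as do those of *Inadl* and *Tjp3* among the partners, and those of *Cask* and *Mpdz* lie below it.

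In the cadherin-catenin core that shares the adherens junction with nectins, 5 of 7 genes were higher and 2 lower. *Cdh1* was at 21.1 to 31.2 FPKM in WT and 46.2, 35.4 and 94.9 FPKM in the null buds (log2 fold change 1.08, limma adjusted p = 0.212). *Cdh2*, the gene of N-cadherin, was at 58.7 to 76.0 FPKM and 52.2, 57.1 and 39.9 FPKM (log2 fold change -0.40, limma adjusted p = 0.306). *Ctnnd1*, the gene of p120-catenin, overlapped between genotypes (log2 fold change 0.16, limma adjusted p = 0.584). The median of the 7 was 0.03, with 0 past the adjusted threshold and 1 in each direction at an unadjusted p under 0.05, which 11.3% of all tested genes reached. Without null replicate 3 the log2 fold change was 0.68 for *Cdh1* and -0.25 for *Cdh2*.

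Counter-receptors of these adhesion proteins on other cells were also listed, mostly lymphocyte receptors and integrins. Of 10 listed, 9 were in the table, and *Tigit* and *Cd96*, receptors of PVR on lymphocytes, were at 0 in all 8 buds. *Cd226*, from the same list and below the filter, was above 0 in all 8. It was at 0.0988 to 0.926 FPKM in WT and at 0.556, 0.187 and 0.237 FPKM in null replicates 1 to 3. *Tigit*, *Cd96* and *Cd226* were named after their values were seen. Among the 3 tested integrin genes, *Itgb1* had a mean of 102.9 FPKM in WT (SD 8.81, n = 5) and of 103.3 FPKM in null buds (SD 3.78, n = 3). The log2 fold changes of *Itgb1*, *Itgb2* and *Itga4* were 0.01, 0.09 and -0.06, and all 3 had overlapping ranges. For all 3, 0 passed the adjusted threshold and 0 had an unadjusted p under 0.05.

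Genes whose level ran most closely with a member were found by Pearson's r of log2(FPKM + 1) over the 8 libraries, centred within genotype, among 9276 genes (9277 for *Pvr*) whose mean reached 5 FPKM. The values are the highest of many and describe these 8 buds. Epithelial and mesenchymal marker sums differed between the buds, most in null replicate 3, and their part in these values was not tested. For *F11r* the closest genes were *Erbb3* at 0.994, *Pdcd6ip* at 0.986 and *Tmem27* at 0.984, and null replicate 3 lies far from the other null buds on this axis. For *Pvrl2* they were *Ttc39a* at 0.983, *Ift22* at 0.971 and *Rhob* at 0.965. *Pvrl1* ran with *Tmem120a* at 0.988, *Ube2k* and *Dcun1d4* at 0.987, and *Pvrl3* with *Zfp799* at 0.970, *Zfp715* at 0.969 and *Ptprn* at 0.951. *Pvr* ran with *Rab12* at 0.983 and *Rtn4* and *Hbs1l* at 0.976. *Jam3* ran with *Llgl1* and *Cenpc1* at 0.985 and *Fmnl2* at 0.984, and *Cxadr* with *Snap47* at 0.952, *Tnnt1* at 0.947 and *Snx10* at 0.945. The lists of these 7 members had no gene in common, which says little, since each holds only 3 genes out of so many. Null replicate 3 was also the highest of the 8 buds for *Pvrl2*, *Pvr* and *Cxadr* and the lowest for *Jam3*, and r was not computed without it.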

How the data were processed

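Single E11.0 pancreas buds, 5 WT and 3 *Lats1/2* null, were sequenced as stranded total RNA depleted of ribosomal RNA. Per the methods and the submitters' processing notes, the authors aligned reads to GRCm38 with TopHat 2.1.0 after trimming with cutadapt 1.12, and computed the deposited FPKM per gene with Cufflinks and Cuffdiff 2.2.1. Quantile normalization is named in the methods, yet the 8 deposited columns differ in distribution (the upper quartile of detected genes ranged from 19.8 to 21.5 FPKM), and no further scaling was applied. Groups and replicate numbers came from the labels. Depth was judged from low FPKM of 393 single-exon genes of at least 1500 bases, since FPKM carry no counts.

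The 13777 genes whose mean reached 0.5 FPKM were fitted with limma 3.58.1 in R 4.3.3, with log2(FPKM + 1) as response, genotype as the only term and a trended prior variance. Benjamini-Hochberg adjustment ran over all 13777 p-values, and 0.05 was the threshold. The fit was tested on simulated data. The alternatives changed the pseudocount to 0.1, the filter to 2 FPKM or to none, the scaling to quantile normalization or median ratios, and the fit to array weights, no trend or a replicate block, and left out 1 library at a time.

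The members and lists were chosen with earlier results of these data known. Named genes are the members, *Lats1*, *Lats2*, the 3 genes of smallest p in each partner list, the first gene of a marker list where a result touches it, and the 3 genes most like each member with a mean of at least 2 FPKM. Other names were added after values were seen and are said to be so. Starts in the table count from 0 (RefSeq starts were 1 base later for 11866 of 23138 genes matched by symbol, and the same for 680), so 1 was added. All 9 members matched RefSeq by symbol or older symbol, and 4 had a promoter sequence. For 1 further gene, counted within its list, no value of its own is reported here. The table's status columns were not used as values. Plots were made in Python 3.11.15 (matplotlib 3.10.9).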

Additional observations from a re-analysis of the deposited data

How the results depend on the processing

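Over 8 alternative settings and 8 left-out libraries, *Pvrl2* and *F11r* kept a higher level in null buds. *Pvrl2* ran from 0.48 (log2, without null replicate 3) to 0.69, *F11r* from 0.34 to 0.96, and *Cxadr* from 0.06 to 0.31. The number of all tested genes called was 2, against 18 with a pseudocount of 0.1, 174 with array weights, 1 without the trend, 1 with the replicate block, and 0 to 69 with 1 library left out, the 69 without null replicate 2. Members called were 0, against 1 with array weights and 0 to 1 with a library left out, in both cases *Pvrl2*. The cause of these moves was not tested. Near 0, signs changed. *Pvrl3* was 0.000956 with quantile normalization and 0.000884 with median-ratio scaling, *Pvr* was -0.0187 with quantile normalization and -0.0389 with array weights, and *Itgb1* was -0.0269 with array weights. With 1 library left out, log2 fold changes ran from -0.172 to 0.0116 for *Pvrl1*, -0.0392 to 0.026 for *Pvrl3*, -0.18 to 0.14 for *Pvr*, -0.23 to 0.0364 for *Jam2*, -0.042 to 0.0397 for *Itgb1*, -0.00899 to 0.226 for *Itgb2* and -0.207 to 0.108 for *Itga4*. Deviations of same-numbered buds from their genotype means had correlations of 0.0855, -0.0969 and 0.0685 across genes. With so few buds these values cannot decide whether any buds shared a litter, and the main fit did not treat the numbers as pairs. With the replicate block *Pvrl2* was 0.63 and its limma adjusted p 0.451. *Pvrl4* could not be judged at about 0 to 18 fragments a bud.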

Other observations

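Other immunoglobulin adhesion proteins related to the nectins and JAMs were listed as 11 genes, of which 8 were tested, with 3 higher, 5 lower and a median log2 fold change of -0.10. None passed limma's adjusted threshold. An unadjusted p under 0.05 was reached by 1, *Igsf5*, and by 11.3% of all tested genes. *Igsf5*, which encodes JAM4, a JAM relative of epithelial tight junctions, was at 0.259 to 0.419 FPKM in WT buds and at 1.117, 0.521 and 5.51 FPKM in *Lats1/2* null replicates 1 to 3. All 3 null buds were above the WT range, as for 4.46% of all tested genes, and null replicate 3 was again the highest, as for *F11r*. With a WT mean of 0.358 FPKM, *Igsf5* passed the filter only through the null buds, and without null replicate 3 it falls under the filter. Its p, its separation and its place among the 3 higher genes are therefore no support. The ratio of means was 6.66, and 2.29 without null replicate 3. *Igsf11* was at 1.66 to 3.90 FPKM in WT and at 3.34, 2.51 and 8.29 FPKM in null buds, with null replicate 3 alone above the WT range (log2 fold change 0.52, or 0.11 without that bud, limma adjusted p = 0.581 with it). *Esam*, the endothelial relative of the JAMs, was at 5.28 to 10.3 FPKM in WT and at 6.45, 5.42 and 4.68 FPKM in null buds (log2 fold change -0.35, limma adjusted p = 0.524). *Gpa33*, below the filter, was at 0 to 0.280 FPKM in WT and 0.373, 0.304 and 0.930 FPKM in null buds, and *Vsig1* was at 0 in all 8. *Gpa33* and *Vsig1* were named after their values were seen. The *Gpa33* levels are near the floor, with 0.280 FPKM in WT replicate 3 against 0.304 FPKM in null replicate 2. Its separation is therefore no support.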
